A study of Mus musculus with 6 samples.

Results

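SMAD1/5 binding was examined around 4 genes that restrain ERK signalling: Dusp9, Dusp6, Spry2 and Spry4. The members were the ChIP-seq peaks that overlapped a fixed mm9 window for each gene: chrX:70785000-70985000 for Dusp9, chr10:98625000-98830000 for Dusp6, chr14:106190000-106390000 for Spry2 and chr18:38640000-38850000 for Spry4. There were 45 such peaks among the 24441 of the 4 peak lists. The lists came from epiblast stem cells derived from mouse E14 embryonic stem cells (ESD-EpiSCs, a primed pluripotent state), kept in N2B27 medium with FGF2 and Activin A and given BMP-4 at 10 ng/ml for 1.5 h or for 24 h, and from E14 embryonic stem cells (ESCs, the naive state) kept in a basal medium with LIF and BMP-4 at 10 ng/ml or in LIF and serum. Each condition was 1 library immunoprecipitated with an anti-Smad1 antibody and no condition had a replicate, so nothing can be tested between lists and the values below are descriptions. Cell state cannot be told apart from culture medium, BMP-4 exposure or library, and both cell types are of 1 ESC line. The cell identities could not be checked against marker genes, because peak lists hold no expression.

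ERK is the last kinase of the cascade that FGF and other growth factors start through receptor tyrosine kinases and Ras. DUSP6 and DUSP9 are dual-specificity phosphatases that remove the activating phosphates from ERK, and SPRY2 and SPRY4 are Sprouty adaptors that hold back the cascade above ERK; FGF signalling itself raises several of these genes, which closes a negative feedback loop. In mouse ESCs, low ERK activity favours self-renewal, and Dusp9 is known as a gene through which BMP signalling by SMAD1/5 lowers ERK activity in these cells.

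Windows of this size can hold other genes besides the named one. In the gene order of the RefSeq table for GRCm38.p6, the nearest protein-coding neighbours were Atp2b3 and Pnck for Dusp9, Galnt4 and Csl for Dusp6, Ndfip2 and Trim52 for Spry2, and Ndfip1 and Arhgap26 for Spry4. No mm9 annotation was used, so the place of each gene within its window is not given. A peak is therefore assigned to a window and not to a gene, exon or promoter.

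RefSeq promoter sequences were at hand for 2 of the 4 genes. The 250 bases upstream of the annotated start are shown for Dusp6, whose window held the single ESD-EpiSC peak, and for Spry2, whose window held the most ESC peaks. Both are on GRCm38.p6, chr10:99262981-99263230 on the plus strand and chr14:105896820-105897069 on the minus strand; these positions cannot be set against the mm9 peaks, and whether a peak covers either promoter was not determined. Capitals mark GTCT, the core of the SMAD-binding element, on either strand.
Dusp6: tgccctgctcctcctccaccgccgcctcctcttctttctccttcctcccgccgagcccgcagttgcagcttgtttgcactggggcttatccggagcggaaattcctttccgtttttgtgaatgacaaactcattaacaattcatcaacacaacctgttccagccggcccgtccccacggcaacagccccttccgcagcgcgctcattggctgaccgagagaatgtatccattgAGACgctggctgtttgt
Spry2: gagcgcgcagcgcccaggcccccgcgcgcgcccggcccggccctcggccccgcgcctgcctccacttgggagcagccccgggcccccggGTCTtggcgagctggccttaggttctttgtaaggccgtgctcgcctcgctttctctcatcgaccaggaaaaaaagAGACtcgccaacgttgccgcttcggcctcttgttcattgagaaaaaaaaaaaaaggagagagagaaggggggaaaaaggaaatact
Neither stretch held GGCGCC, a GC-rich motif bound by SMAD1/5, or GTCTAGAC, the palindromic SMAD-binding element, on either strand. Among the same stretches of 27025 promoters, 9.54% held GGCGCC and 0.174% held GTCTAGAC. GTCT occurred 1 time at Dusp6 and 2 times at Spry2; 83.0% of promoters held it at least once, so its presence sets neither gene apart.

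Peaks in the windows were almost all from ESCs. The ESD-EpiSC lists gave 1 peak at 1.5 h, out of 225, and 0 at 24 h, out of 133. The ESC lists gave 27 peaks in LIF+BMP-4, out of 14696, and 17 in LIF+serum, out of 9387. The windows thus held 0.444% of the 1.5 h list, 0.184% of the LIF+BMP-4 list and 0.181% of the LIF+serum list. The ESD-EpiSC lists were short throughout the genome, and stretches without a peak were the usual case in them: of 12851 tiles of 200 kb laid end to end along chromosomes 1 to 19 and X, 1.47% held a 1.5 h peak and 0.887% a 24 h peak. Among the same tiles, 45.5% held a LIF+BMP-4 peak and 35.5% a LIF+serum peak. The number of reads behind each list is unknown, so a place without a peak is not a place without binding.

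**Figure D1:**
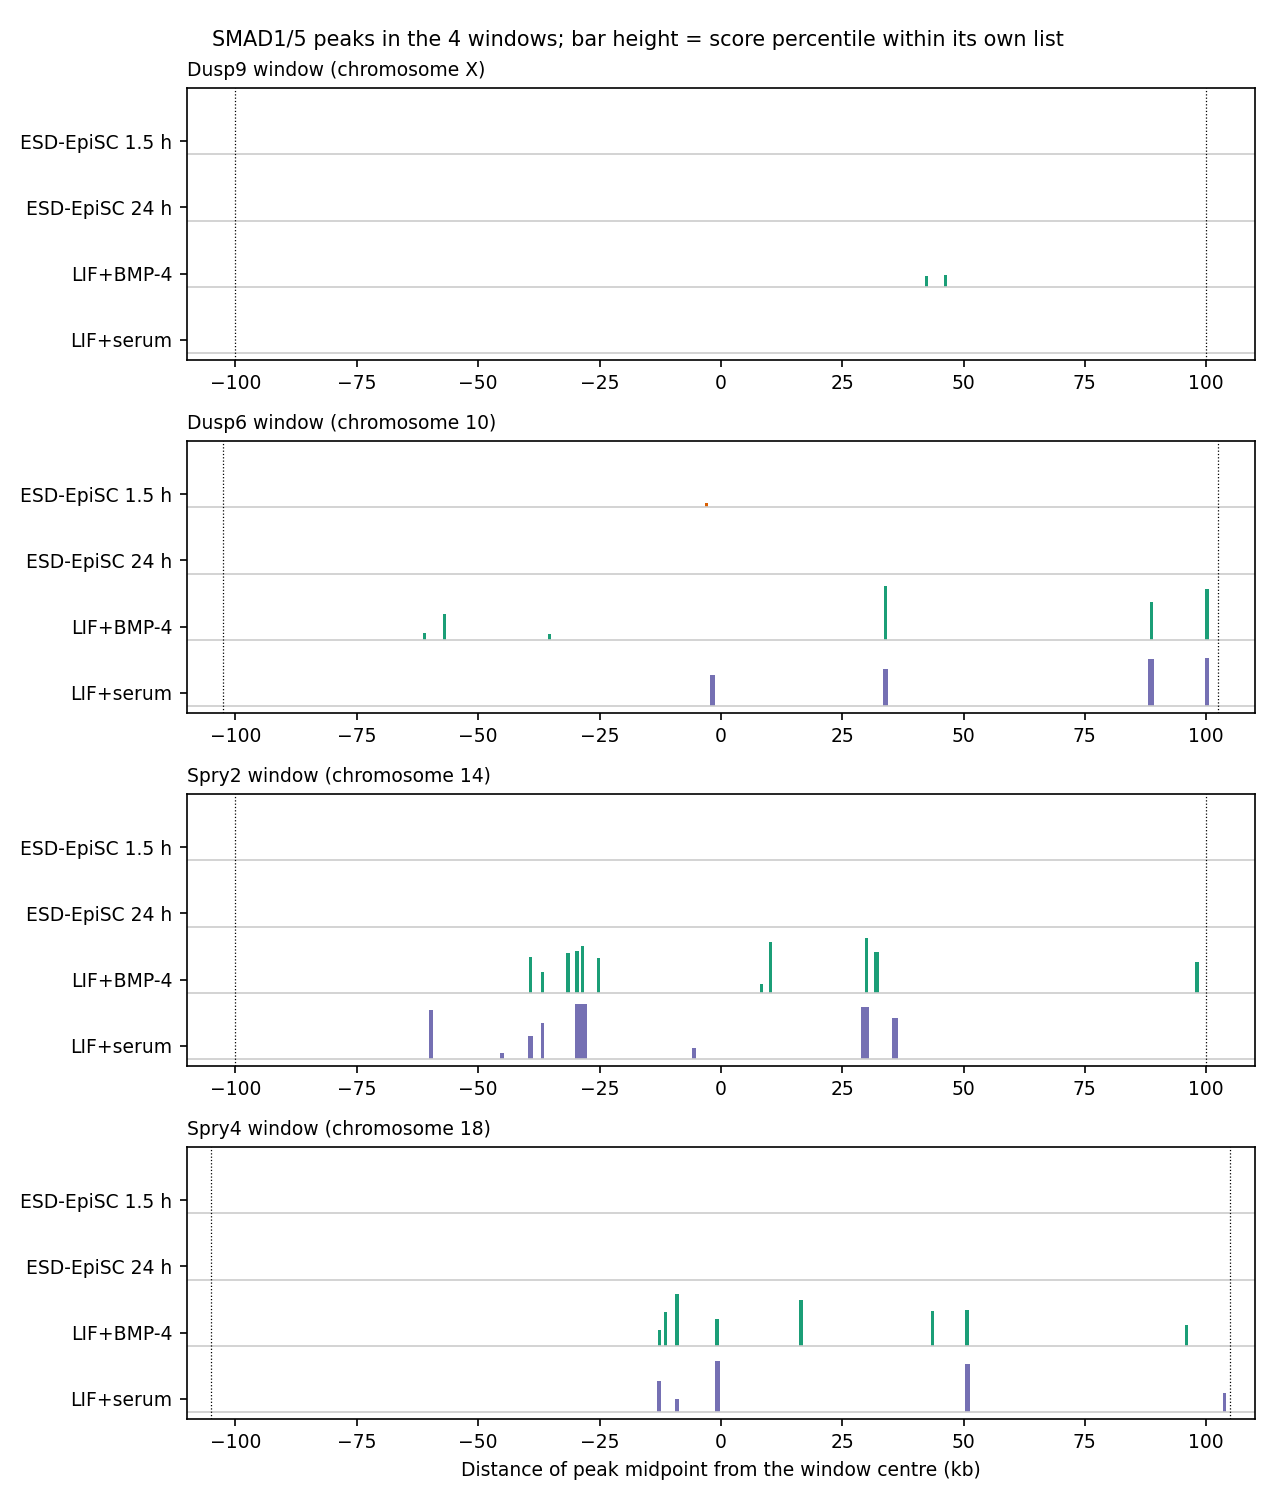
SMAD1/5 peaks in the 4 windows by distance of the peak midpoint from the window centre (kb), with 1 row per library and dotted lines at the window ends. Bar height is the percentile of the peak's score within its own list, from 0 to 100, and the narrowest bars are drawn wider than the peaks; the Spry2 window carries 11 LIF+BMP-4 and 8 LIF+serum peaks, and the Dusp9 window 2 LIF+BMP-4 and 0 LIF+serum peaks.

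The ESC windows ranked in the same order in both media. Spry2 had the most peaks, with 11 in LIF+BMP-4, against 8 in LIF+serum. Spry4 followed with 8 in LIF+BMP-4, against 5 in LIF+serum. Dusp6 had 6 in LIF+BMP-4, against 4 in LIF+serum, and Dusp9 had 2 in LIF+BMP-4, against 0 in LIF+serum. The LIF+BMP-4 list was the longer one throughout. Limited to its 9387 highest-scoring peaks, the length of the LIF+serum list, it gave 10 peaks at Spry2, 7 at Spry4, 4 at Dusp6, as many as LIF+serum, and 0 at Dusp9. Counts as high as those of Spry2 were found in 0.459% of tiles in LIF+BMP-4 and in 0.459% in LIF+serum. For Spry4 these shares were 1.61% in LIF+BMP-4, against 2.78% in LIF+serum, and for Dusp6 they were 4.01% in LIF+BMP-4, against 5.05% in LIF+serum. The Spry4 window (210 kb) and the Dusp6 window (205 kb) are slightly longer than a tile. For Dusp9, 25.8% of tiles held at least 2 LIF+BMP-4 peaks. Among tiles of the same chromosome only, the Spry2 shares were 0.329% in LIF+BMP-4, against 0.164% in LIF+serum. The Spry4 shares were then 0.683% in LIF+BMP-4, against 1.37% in LIF+serum. Those of Dusp6 were 6.01% in LIF+BMP-4, against 8.07% in LIF+serum, and that of Dusp9 was 2.85% in LIF+BMP-4. These shares describe 1 library each; the windows were chosen with results of these data known, and neighbouring tiles are not independent.

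**Figure D2:**
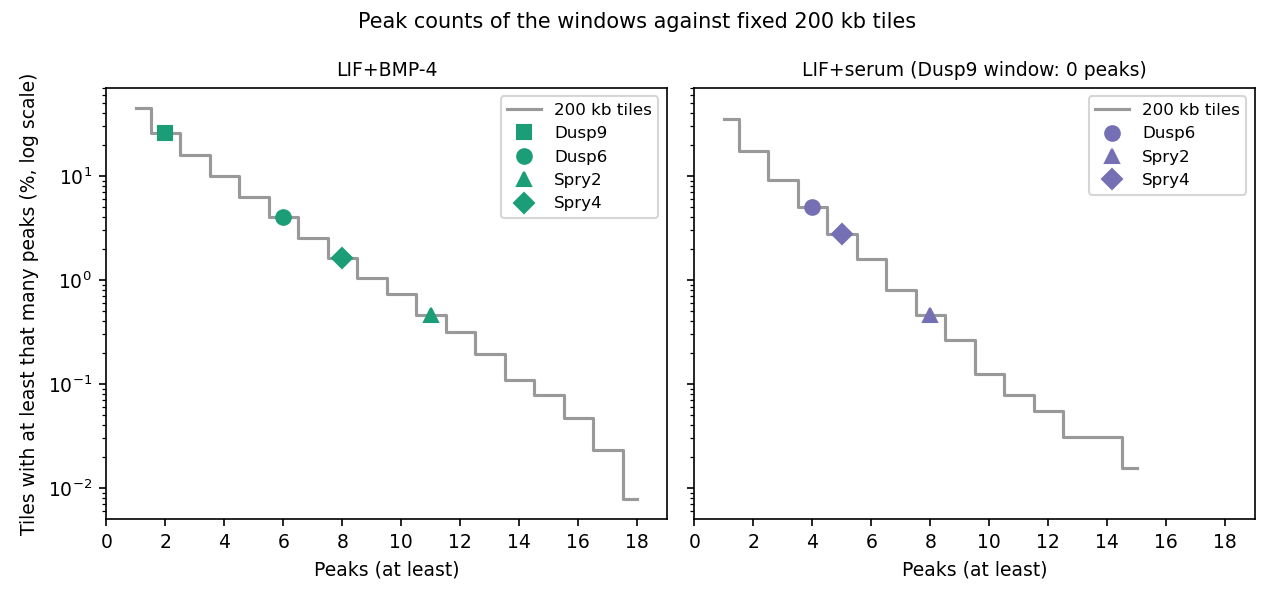
Share of 200 kb tiles (%, log scale) with at least the number of peaks on the horizontal axis, for LIF+BMP-4 on the left and LIF+serum on the right. The grey line is the tiles and the symbols are the windows placed at their own counts; Spry2 lies where 0.459% of tiles reach its count in either medium, and Dusp9 lies at 25.8% in LIF+BMP-4.

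Dusp9, the phosphatase gene tied to BMP signalling in ESCs, had the sparsest window. Its 2 peaks, both in LIF+BMP-4, lay at chrX:70927214-70927494 (score 56.9, rank 11853 of 14696) and at chrX:70931011-70931493 (score 57.82, rank 11540). Both ranked low in their list, at the 19.4 and 21.5 percentiles, and lay 42.4 and 46.3 kb above the window centre, towards higher positions. No LIF+serum, 1.5 h or 24 h peak fell in the window. Neither was among the 9387 highest-scoring LIF+BMP-4 peaks.

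Chromosome X as a whole carried few ESC peaks: 12% of its 808 tiles held a LIF+BMP-4 peak and 7.43% a LIF+serum peak. At least 2 LIF+BMP-4 peaks were found in 2.85% of the chromosome X tiles. The nearest peaks beyond the window were a pair that overlapped each other, at chrX:71020381-71020746 in LIF+BMP-4 (score 117.35, percentile 78.6) and at chrX:71020093-71020895 in LIF+serum (score 56.5, percentile 20.8). The LIF+BMP-4 peak lay 35.4 kb and the LIF+serum peak 35.1 kb above its upper end. The only SMAD1/5 call common to both media near Dusp9 was thus outside the window, and extending the window by 50 kb brought it in. The nearest ESD-EpiSC peaks were 13500 kb away at 1.5 h and 17600 kb away at 24 h.

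Dusp6, which encodes a cytoplasmic phosphatase of ERK, had the only ESD-EpiSC peak of the 4 windows. This 1.5 h peak was at chr10:98724495-98724592, 98 bp wide, with a score of 51.08 and rank 207 of 225, close to the lowest score of its list (50.0). Of the 1.5 h peaks, 58 (25.8%) were as narrow or narrower, and 17 scored lower. It overlapped no ESC peak, as did most peaks of that list: 34.7% of 1.5 h peaks overlapped a peak of either ESC list. A LIF+serum peak at chr10:98725316-98726226 (score 74.82, rank 4155) began 723 bp beyond it, and these were the 2 calls closest to the window centre, at 3.0 kb and 1.7 kb below it. The LIF+BMP-4 list had no peak there; its nearest call to the 1.5 h peak was 32.1 kb away. The nearest 24 h peak lay 65200 kb from the window.

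The upper part of the Dusp6 window held 3 regions with a peak in both ESC media. The first, at chr10:98760938-98761907, held the strongest LIF+BMP-4 peak of the window (score 220.91, rank 714 of 14696), whereas its LIF+serum peak scored 84.41 (rank 3202 of 9387). These are the 95.1 percentile of the LIF+BMP-4 list and the 65.9 percentile of the LIF+serum list. The region at chr10:98815616-98816845 stood at the 66.7 percentile of LIF+BMP-4 peaks and the 83.0 percentile of LIF+serum peaks. The region at chr10:98827456-98828023, near the upper end of the window, stood at the 89.8 percentile of LIF+BMP-4 peaks and the 85.6 percentile of LIF+serum peaks, where it held the highest score of the window (123.27). Of these 3 shared regions, the one nearest the centre led in LIF+BMP-4 and came last in LIF+serum. Such differences in order were common. Over the 5330 regions of the lists with 1 peak of each medium, the percentiles differed by a median of 18.8 points. Of these regions, 33.6%, 55.0% and 82.9% differed, in either direction, by at least as much as these 3 sites, in the order given. The other LIF+BMP-4 peaks, 3 in number, lay 35.3 to 61.1 kb below the centre at ranks 7967 to 13099, and none overlapped a LIF+serum peak. Over the whole list 38.7% of LIF+BMP-4 peaks overlapped a LIF+serum peak, so a peak without overlap was the usual case.

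Spry2, an inhibitor of receptor tyrosine kinase signalling, had peaks in clusters. In LIF+BMP-4, 6 peaks fell between chr14:106250534 and chr14:106265118, each with 5 others within 20 kb. Such crowding was found at 3.18% of all LIF+BMP-4 peaks, and the window held all 6 of the members that met it. These 6 met it through one another, so they are a single cluster and not separate cases. The cluster is also part of the high count of the window and is not a further result. Of the 11 LIF+BMP-4 peaks of the window, 10 had another within 5 kb, against 26.5% over the list. In LIF+serum 2 of the 8 peaks (25.0%) did, against 18.4% over the list. None had 5 others within 20 kb, which 1.12% of the list had. LIF+serum peaks were nevertheless grouped here too, just under that cutoff. Those starting at chr14:106250257, chr14:106252983 and chr14:106259997 had 3 others within 20 kb each, and the one at chr14:106244610 had 4. Although LIF+BMP-4 gave more peaks, these covered 7504 bp, against 9318 bp for the LIF+serum peaks. The peaks of the window had a median width of 627 bp in LIF+BMP-4, against 967 bp in LIF+serum. Over the lists the median widths were 500 bp in LIF+BMP-4, against 811 bp in LIF+serum.

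The broadest shared site lay in this cluster. The LIF+serum peak at chr14:106259997-106262418 was 2422 bp wide, the widest of all members, and had the highest rank of any LIF+serum member (score 254.04, rank 218 of 9387). In LIF+BMP-4 the same stretch held 2 separate peaks, at chr14:106260132-106260758 (score 106.46, rank 3846) and chr14:106261237-106261829 (score 128.92, rank 2566 of 14696). The highest LIF+BMP-4 member of all windows was on the other side of the centre, at chr14:106319631-106320435 (score 282.13, rank 357, percentile 97.6). It lay inside a LIF+serum peak at chr14:106318824-106320620 (score 167.27, rank 650, percentile 93.1). The remaining regions held in both media were at chr14:106250257-106251330 (percentile 63.4 in LIF+BMP-4, against 40.9 in LIF+serum) and chr14:106252983-106253631 (percentile 37.4 in LIF+BMP-4, against 64.1 in LIF+serum). Differences at least as large, in either direction, were found in 43.6% and 37.3% of the 5330 pairs.

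Spry2 also had strong peaks called in 1 medium only. In LIF+BMP-4 the peak at chr14:106299809-106300518 (score 161.98, rank 1517) had its nearest LIF+serum peak 14.9 kb away. Of the LIF+BMP-4 peaks ranked as high or higher, 87.2% overlapped a LIF+serum peak, so unshared peaks were the minority in that set. In LIF+serum the peak at chr14:106229919-106230778 (score 131.34, rank 1166) had its nearest LIF+BMP-4 peak 19.8 kb away, and 93.4% of LIF+serum peaks ranked as high or higher were shared. The other unshared peaks of the window were 5 in LIF+BMP-4, against 3 in LIF+serum. Over the lists, 38.7% of LIF+BMP-4 peaks were shared, against 58.8% of LIF+serum peaks, so unshared peaks were more usual in LIF+BMP-4 throughout. The nearest ESD-EpiSC peaks were 1450 kb from the window at 1.5 h and 11300 kb at 24 h.

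Spry4, the second Sprouty adaptor, had its shared sites close to the window centre. The window held 4 regions with a peak in both ESC lists. Of these regions, 3 lay from 12.7 to 0.7 kb below the centre and 1 lay 50.8 kb above it. At chr18:38735533-38736507 the LIF+BMP-4 peak scored 180.36 (rank 1185 of 14696) and was the highest of its window, while the LIF+serum peak scored 57.56 (rank 7170 of 9387) and was the lowest of its window. At chr18:38743791-38744800 the LIF+BMP-4 peak scored 75.01 (rank 7556), and the LIF+serum peak scored 150.35 (rank 844) and was the highest of its window. These neighbouring sites, 8.22 kb apart by LIF+BMP-4 midpoints, came in opposite order in the 2 lists. The first stood at the 91.9 percentile of LIF+BMP-4 peaks and the 23.6 percentile of LIF+serum peaks. In either direction, 4.18% of the 5330 pairs differed by at least as much. The other stood at the 48.6 percentile of LIF+BMP-4 peaks and the 91.0 percentile of LIF+serum peaks. A difference at least that large, in either direction, was found in 19.5% of pairs. These 2 sites were picked out after their values were seen. Of the 10 pairs in the windows, the percentile was higher for LIF+BMP-4 at 5 and for LIF+serum at 5. The same split was not counted over the 5330 pairs, so it has no background here.

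At the remaining shared Spry4 regions, chr18:38731936-38732737 stood at percentile 28.9 in LIF+BMP-4, against 55.2 in LIF+serum, and chr18:38795308-38796248 at percentile 64.4 in LIF+BMP-4, against 85.8 in LIF+serum. The highest unshared LIF+BMP-4 peak, at chr18:38761126-38761872 (score 123.81, rank 2831), had its nearest LIF+serum peak 16.3 kb away, and 3 other LIF+BMP-4 peaks were unshared. Of the LIF+BMP-4 peaks ranked as high or higher, 77.5% overlapped a LIF+serum peak, against 38.7% over the list. The unshared LIF+serum peak at chr18:38848506-38849192 (score 62.13, rank 6117) lay near the upper end of the window. Of the LIF+serum peaks ranked as high or higher, 68.8% were shared, against 58.8% over the list. With only peaks scoring at least 100, 2 LIF+BMP-4 peaks and 2 LIF+serum peaks of the window were left. Of the regions, 0 were then held in both media. This cut kept 29.7% of the LIF+BMP-4 list and 23.1% of the LIF+serum list, so it fell at unlike ranks. The window held no ESD-EpiSC peak; the nearest was 2540 kb away at 1.5 h and 5490 kb away at 24 h.

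**Figure D3:**
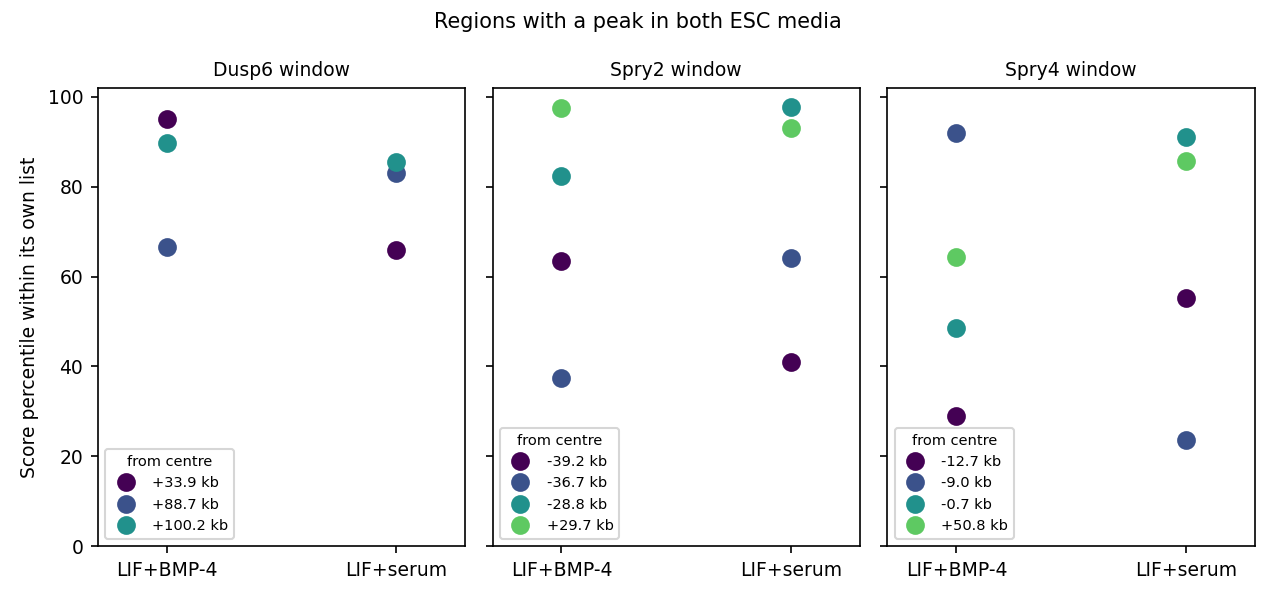
Score percentile within its own list for the 11 regions with a peak in both ESC media, by window, with LIF+BMP-4 on the left and LIF+serum on the right; each colour is 1 region, named by its distance from the window centre (kb), and where a medium had 2 peaks the higher is shown. In the Spry4 panel the region at -9.0 kb is the highest in LIF+BMP-4 and the lowest in LIF+serum.

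Over the 4 windows the ESC peaks formed 32 merged regions, of which 11 were held in common, 15 came from LIF+BMP-4 alone and 6 from LIF+serum alone. Of the LIF+BMP-4 members, 12 of 27 met a LIF+serum peak (44.4%, with an exact 95% interval of 25.5 to 64.7), against 38.7% over the list. Of the LIF+serum members, 11 of 17 met a LIF+BMP-4 peak (64.7%, interval 38.3 to 85.8), against 58.8% over the list. Both intervals held the share of the whole list, and both were wide, so a higher or lower share at these windows could not be seen with this few peaks. The intervals cover counting error only, and peaks of a window are not independent.

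By gene, the shared portion of LIF+BMP-4 peaks was 0 of 2 for Dusp9, 3 of 6 for Dusp6, 5 of 11 for Spry2 and 4 of 8 for Spry4. For LIF+serum peaks it was 3 of 4 for Dusp6, 4 of 8 for Spry2 and 4 of 5 for Spry4. Shared peaks overlap by definition, so their midpoints lie close: in 90.0% of the 10 regions with 1 peak of each they were within 200 bp, near the 89.8% over 5330 such pairs of the lists. The widest gap was at the Spry2 region with the highest LIF+BMP-4 member, whose midpoints were 311 bp apart.

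Members spread widely over the ranks of their lists. In LIF+BMP-4 the 27 members had a median percentile of 62.4 and ran from 10.9 at Dusp6 to 97.6 at Spry2. In LIF+serum the 17 members had a median of 65.9 and ran from 10.1 to 97.7, both at Spry2. Shared members stood at a median percentile of 70.2 in LIF+BMP-4, against 83.0 in LIF+serum, and unshared members at 54.6 in LIF+BMP-4, against 45.2 in LIF+serum. Over the lists the medians of shared peaks were 72.6 in LIF+BMP-4, against 63.0 in LIF+serum, and those of unshared peaks were 38.2 in LIF+BMP-4, against 34.3 in LIF+serum. Scores of at least 100 were reached by 10 of the 27 LIF+BMP-4 members, against 29.7% of the list, and by 7 of the 17 LIF+serum members, against 23.1%.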

How the data were processed

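The authors deposited 1 list of peaks for each immunoprecipitated library, in 5 columns that give its position, its name and a score. The score was deposited by the authors without a stated scale. It served here to rank peaks within a list, since it depends on depth and control. The exception was a cut at a score of 100, applied alike to every list. That cut kept 29.7% of the LIF+BMP-4 list and 23.1% of the LIF+serum list, so it is not an equal threshold. The submitters' processing notes name the mm9 build, Bowtie 1.1.0, Picard and MACS 1.4.2 without roles. The control library and the read number are not given there, so the depth and its precision are unknown. The input DNA libraries were not analysed here.

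A peak was a member when it overlapped a window by at least 1 bp, and counted as shared where a peak of the other ESC list covered at least 1 bp of it. Tiles of 200 kb ran from the first to the last peak of each chromosome, and a peak counted in each tile it touched. Percentiles give the share of a list scoring no higher. Positions are 1-based. Exact (Clopper-Pearson) 95% intervals were used for shares. Python 3.11.15, pandas 2.3.3 and scipy 1.17.1 were used, and the overlap code was tested on simulated data and against bedtools.

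The genes, windows and comparisons were chosen with earlier results of these data known. All ESD-EpiSC members, the highest peak of each list and every region held in both media were named; the highest unshared peaks, the crowding measure, the peaks beyond the windows and the GTCT search were chosen after values were seen. The alternatives were a score of at least 100, ESC lists of equal length, narrower and wider windows, peak midpoints, stricter and looser overlap, and ranks within width tertiles. Other ERK feedback genes were not placed, because the gene table belongs to GRCm38.p6 and not to mm9.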

Additional observations from a re-analysis of the deposited data

How the results depend on the processing

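No paired analysis was possible because no condition had a second library. Of 134 values recomputed, 106 stayed within their limit (1.5 times for counts, the exact interval for percentiles) and 28 moved. Many of the 106 could not have moved. A count of 0 stays 0 under a score cut, a shorter list, a narrower window or a stricter overlap. Shortening the LIF+BMP-4 list leaves the counts of the other lists as they were. The percentile limit treats a fully counted list as a sample. The tally is therefore not a measure of robustness. A score of at least 100 left 0 peaks at Dusp9 in LIF+BMP-4 and 0 at Dusp6 at 1.5 h. It left 2 in LIF+BMP-4, against 2 in LIF+serum at Dusp6, 6 in LIF+BMP-4, against 3 in LIF+serum at Spry2, and 2 in LIF+BMP-4, against 2 in LIF+serum at Spry4. Regions held in both media became 1 at Dusp6, 2 at Spry2, 0 at Spry4 and 3 in all. These follow from dropping weaker peaks. The cut fell at unlike ranks of the ESC lists, keeping 29.7% of LIF+BMP-4 and 23.1% of LIF+serum peaks. The counts it left in the 2 media are therefore not matched. ESC lists of equal length left 0 LIF+BMP-4 peaks at Dusp9 and, within the limit, 4 at Dusp6, 10 at Spry2 and 7 at Spry4, with 10 shared regions in all. The inner 100 kb left 2 peaks in each ESC list and 1 shared region at Dusp6, with a highest LIF+serum percentile of 65.9, and 3 LIF+serum peaks at Spry4. Windows extended by 50 kb added 1 LIF+serum peak and 1 shared region at Dusp9 and raised its highest LIF+BMP-4 percentile to 78.6. Ranked within tertiles of peak width, the highest percentiles were 38.8 at Dusp9 (LIF+BMP-4), 87.0 (LIF+BMP-4) and 96.6 (LIF+serum) at Dusp6, 93.4 (LIF+BMP-4) and 94.3 (LIF+serum) at Spry2, and 89.7 (LIF+BMP-4) and 80.1 (LIF+serum) at Spry4. Extension of peaks by 1 kb gave 3 shared regions at Spry2, 3 at Spry4 and 9 in all, within the limit. Counting peaks by their midpoint and overlap of 50% of the shorter peak changed none of the counts they were applied to. With unknown depth, missing peaks, above all in ESD-EpiSCs, do not show missing binding.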
